A study of Mus musculus with 6 samples.

Results

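Neurexins, neuroligins and leucine-rich repeat transmembrane proteins (LRRTM) are adhesion proteins of the synapse. The genes described here are Nrxn2, Nrxn3, Nlgn1, Nlgn2, Nlgn3, Lrrtm1, Lrrtm2, Lrrtm3 and Lrrtm4, and their members on the array are all probe sets annotated to 1 of these symbols alone. They are 9 of 18193 genes so annotated, with 26 of 45037 probe sets. Tests were run on probe sets whose signal intensity averaged at least 100 in any group, 23 of these 26 and 23262 of all.

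Hippocampal RNA was taken from male C57BL/6 mice (C57BL/6J in the methods) of the Tg2576 line, whose transgene, driven by the prion protein promoter, codes for human amyloid precursor protein bearing the Swedish mutation. All 3 groups carried this transgene, and no group without it was analysed here. The groups were 18 month-old untreated mice (Tg-18mo), 18 month-old mice that drank captopril, an inhibitor of angiotensin-converting enzyme (ACE), at 20 mg per kg per day for the last 6 months (Tg-18mo-ACEI), and 12 month-old untreated mice (Tg-12mo). Each group had 2 chips, and each chip carried RNA of 4 mice, so that p-values measure the spread between chips of pooled RNA and not between animals. Whether both chips of a group carried different pools is not given in the sources used here, and if they shared a pool the spread is technical only.

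Neurexins sit in the presynaptic membrane and reach across the cleft to bind neuroligins and LRRTM proteins in the postsynaptic membrane. Each neurexin gene gives long and short forms from separate promoters and is heavily spliced, and the splice form sets which partner is bound. Neuroligin 1 is known from excitatory synapses, neuroligin 2 from inhibitory synapses and neuroligin 3 from both, while LRRTM proteins are known from excitatory synapses. In the hippocampus these proteins take part in forming synapses and in holding glutamate receptors there.

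The genes differ widely in extent. On the mouse assembly GRCm38.p6, Nrxn3 spans 1610.0 kb of chromosome 12, Nlgn1 spans 911 kb of chromosome 3 and Lrrtm4 spans 791 kb of chromosome 6. Nlgn2 covers 14.7 kb of chromosome 11, Nlgn3 covers 22.2 kb of chromosome X and Nrxn2 covers 114 kb of chromosome 19. Lrrtm1, Lrrtm2 and Lrrtm3 lie inside Ctnna2, Ctnna1 and Ctnna3, in this order, and these hosts encode alpha-catenins. Where in its transcript a probe set lies is not given in the sources used here.

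The 250 bases before the annotated starts of Nlgn1 are shown because this gene had the largest difference of the 9, and those of Nlgn2 are shown beside them because Nlgn2 is the inhibitory counterpart and its probe set 1455143_at was lower with captopril. All are RefSeq sequences of GRCm38.p6, written 5′ to 3′ on the minus strand, where these genes lie. Capitals mark the GC box letters GGGCGG found by a search of both strands.
Nlgn1, first start, chr3:26331910-26332159: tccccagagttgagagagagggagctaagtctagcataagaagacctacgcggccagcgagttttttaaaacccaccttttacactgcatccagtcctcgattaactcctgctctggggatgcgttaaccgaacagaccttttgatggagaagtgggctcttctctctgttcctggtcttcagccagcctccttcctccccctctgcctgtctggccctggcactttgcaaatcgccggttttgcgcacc
Nlgn1, second start, chr3:26153987-26154236: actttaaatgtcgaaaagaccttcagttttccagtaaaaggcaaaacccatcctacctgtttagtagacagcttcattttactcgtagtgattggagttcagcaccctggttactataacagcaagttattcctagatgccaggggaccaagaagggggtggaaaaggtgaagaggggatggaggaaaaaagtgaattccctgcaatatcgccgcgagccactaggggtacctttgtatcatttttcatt
Nlgn2, chr11:69837785-69838034: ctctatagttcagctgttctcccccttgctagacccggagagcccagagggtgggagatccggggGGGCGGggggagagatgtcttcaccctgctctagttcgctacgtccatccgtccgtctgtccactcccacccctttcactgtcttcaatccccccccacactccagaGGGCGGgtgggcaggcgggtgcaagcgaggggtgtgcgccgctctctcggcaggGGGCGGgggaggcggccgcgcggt
The Nlgn2 stretch held the GC box and 67.6% G or C, while the Nlgn1 stretches held 53.6% and 43.6%. Of 32851 RefSeq promoter stretches of this length, 32.7% held the GC box. The search also covered the TATA box TATAAA (in 12.4% of all stretches), the cAMP response element TGACGTCA (1.55%), its shorter part TGACG (17.8%) and the E-box CACGTG (6.02%), and none of these was among the letters of the 3 stretches on either strand. The array did not measure which start was used.

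On all chips the signals of probe sets correlated at 0.987 to 0.992 within a group and at 0.959 to 0.965 between groups. Several control measures moved with the groups. The 18S ribosomal RNA probe set read 10219 and 11144 in Tg-18mo and 2000 to 2214 in the other 4 chips, and the ratio of 3′ to 5′ beta-actin signal was 1.88 and 1.98 on the untreated 18 month-old chips, 1.38 and 1.45 on the captopril chips and 1.77 and 1.83 on the 12 month-old chips. Genes of pyramidal neurons read high on all chips. Neurod6, a gene of pyramidal neurons, read 4061 to 6144, and Wfs1, a gene of CA1 pyramidal neurons, read 3070 to 3759. Genes of dentate granule cells differed more between groups. Prox1 read 139 to 220 on the untreated chips of both ages, and captopril chips had 442.5 and 448. C1ql2 read 715 and 745 at 12 months, while chips of 18 month-old mice ranged from 1570 to 1763. Marker genes of other tissues are described below. The poly-A control probe sets averaged 201 and 208 on the untreated 18 month-old chips, 474 and 483 with captopril and 1397 and 1403 at 12 months. Hybridisation controls averaged 4125 to 4574 on the treated and untreated 18 month-old chips and 9938 on both 12 month-old chips. The part of these control measures in the results was not tested.

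Nlgn1 encodes neuroligin 1, and its probe set 1437160_at had the largest difference of the 23 tested. It read 521 and 547 in the Tg-18mo chips, 1975 and 1737 in the Tg-18mo-ACEI chips and 932 and 716 in the Tg-12mo chips. The captopril chips were the highest, the untreated old chips were the lowest, and no pair of groups overlapped. With 2 chips a group, chips can also separate without a true difference. How many of all probe sets separated was not counted, here or for the probe sets below. The signal was 3.47-fold higher with captopril than in untreated mice of the same age (log2 difference 1.79, SE 0.122, adjusted p = 2.4e-05, limma with Benjamini-Hochberg adjustment over all 23262 probe sets, as for every test that follows). It was 1.53-fold higher at 12 than at 18 months (log2 0.61, SE 0.122, adjusted p = 0.0037) and 2.27-fold higher with captopril than at 12 months (log2 1.18, adjusted p = 0.00016). Each step in the order Tg-18mo, Tg-12mo, Tg-18mo-ACEI therefore passed the test. These are bulk samples, in which more cells of a type and more RNA per cell cannot be told apart. The other Nlgn1 probe set, 1421648_at, read 1.14 to 15.3 and was not tested.

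**Figure D1:**
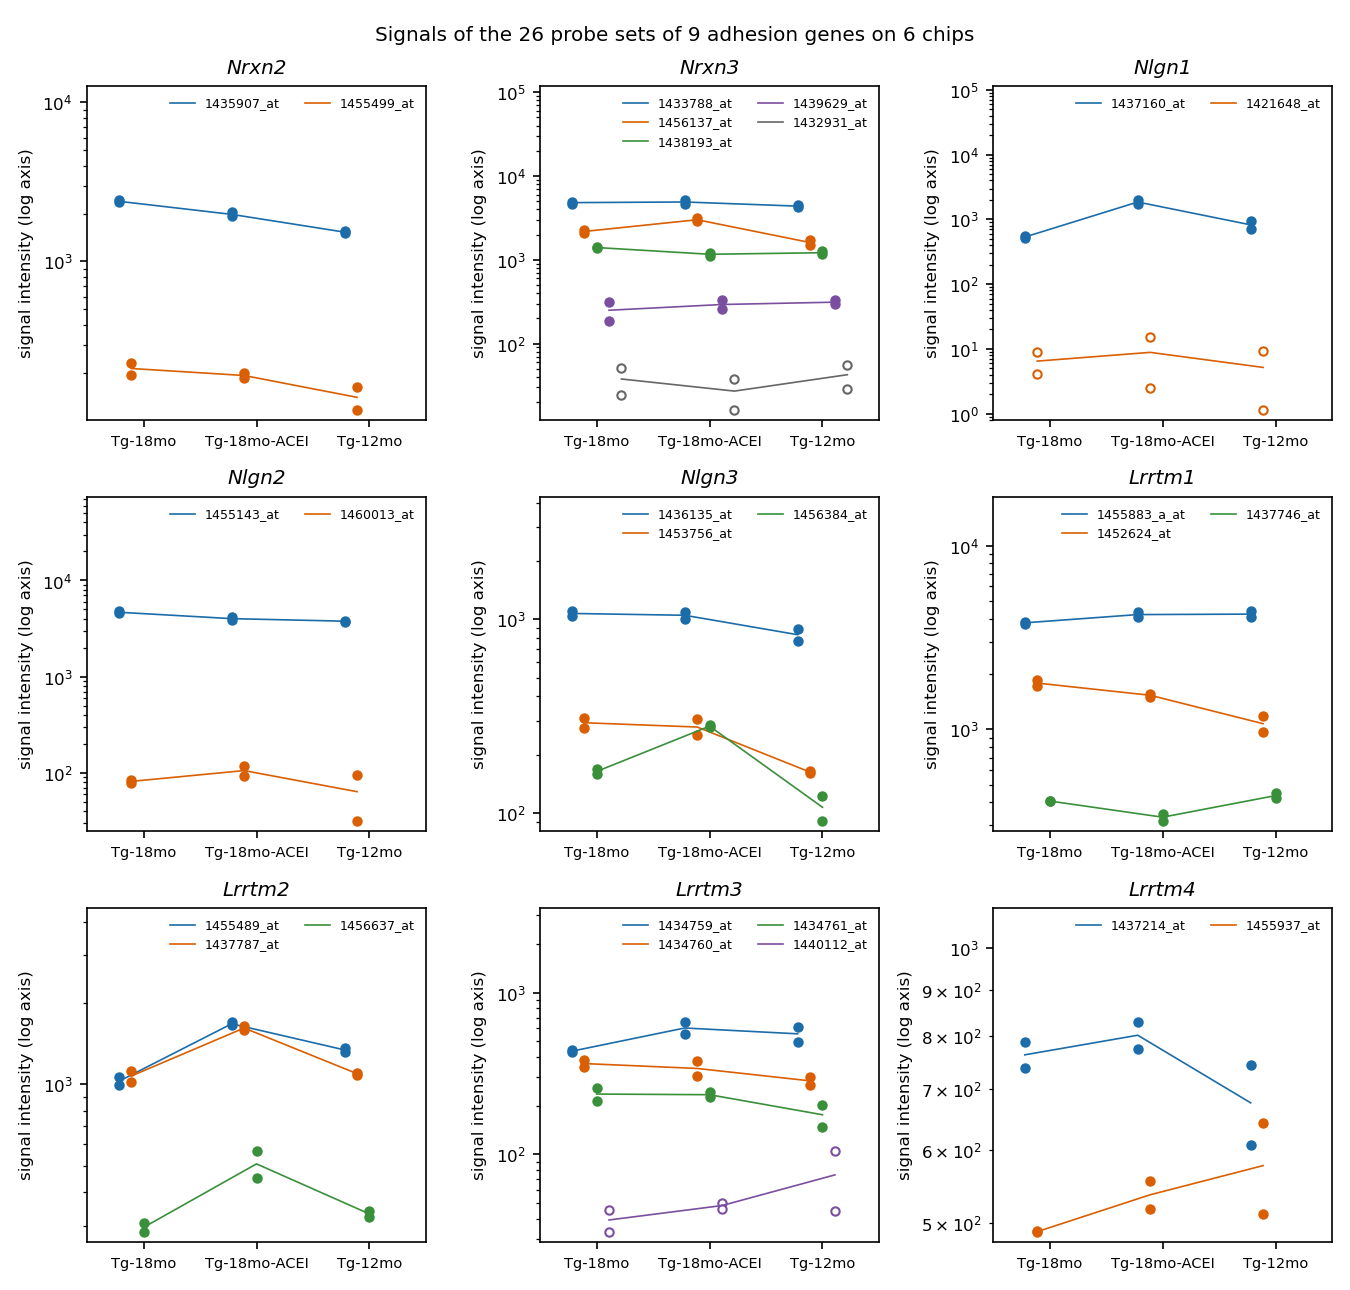
Signal intensity (log axis, 1 panel per gene) of all 26 probe sets of the 9 genes on the 6 chips, grouped as Tg-18mo, Tg-18mo-ACEI and Tg-12mo. Each point is 1 chip, lines join group means, open points are probe sets that were not tested, and levels of different probe sets cannot be compared with each other. Nlgn1 1437160_at peaks in Tg-18mo-ACEI with chips at 1737 and 1975, and the 3 Lrrtm2 probe sets peak there as well.

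Of the 23 probe sets, 7 were higher with captopril than in untreated 18 month-old mice and 3 were lower, which is 30.4% and 13.0%. The share over the whole set of 23262 was 15.9% higher and 17.7% lower. The median log2 difference of the 23 was 0.07, against -0.04 over all probe sets. Of the 7 higher ones 3 were the probe sets of Lrrtm2, and Nlgn1, Nlgn3, Nrxn3 and Lrrtm3 had 1 each. The lower ones belonged to Nrxn2, Nrxn3 and Nlgn2.

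Between the untreated ages the balance was the other way. At 12 months, 3 of the 23 were higher than at 18 months and 9 were lower, or 13.0% and 39.1%, where 21.5% and 25.9% of all probe sets did so. The median log2 difference was -0.21, against -0.05 over all. Captopril-treated mice compared with 12 month-old mice had 10 higher and 1 lower probe set, or 43.5% and 4.35%, against 22.3% and 17.7% of all probe sets, with medians of 0.34 and 0.05. Nlgn3 gave 3 of the 9 lower probe sets at 12 months. Of the 10 higher with captopril than at 12 months, 3 were of Nlgn3 and 3 of Lrrtm2. Each of the 3 comparisons shares a group, and so 2 chips, with each of the others. Of the 23 tested, 22 had a mean of 100 or more in all 3 groups, so that the filter on low signals did not choose them by 1 high group. The exception is Nlgn2 1460013_at, which passed the filter through Tg-18mo-ACEI alone.

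**Figure D2:**
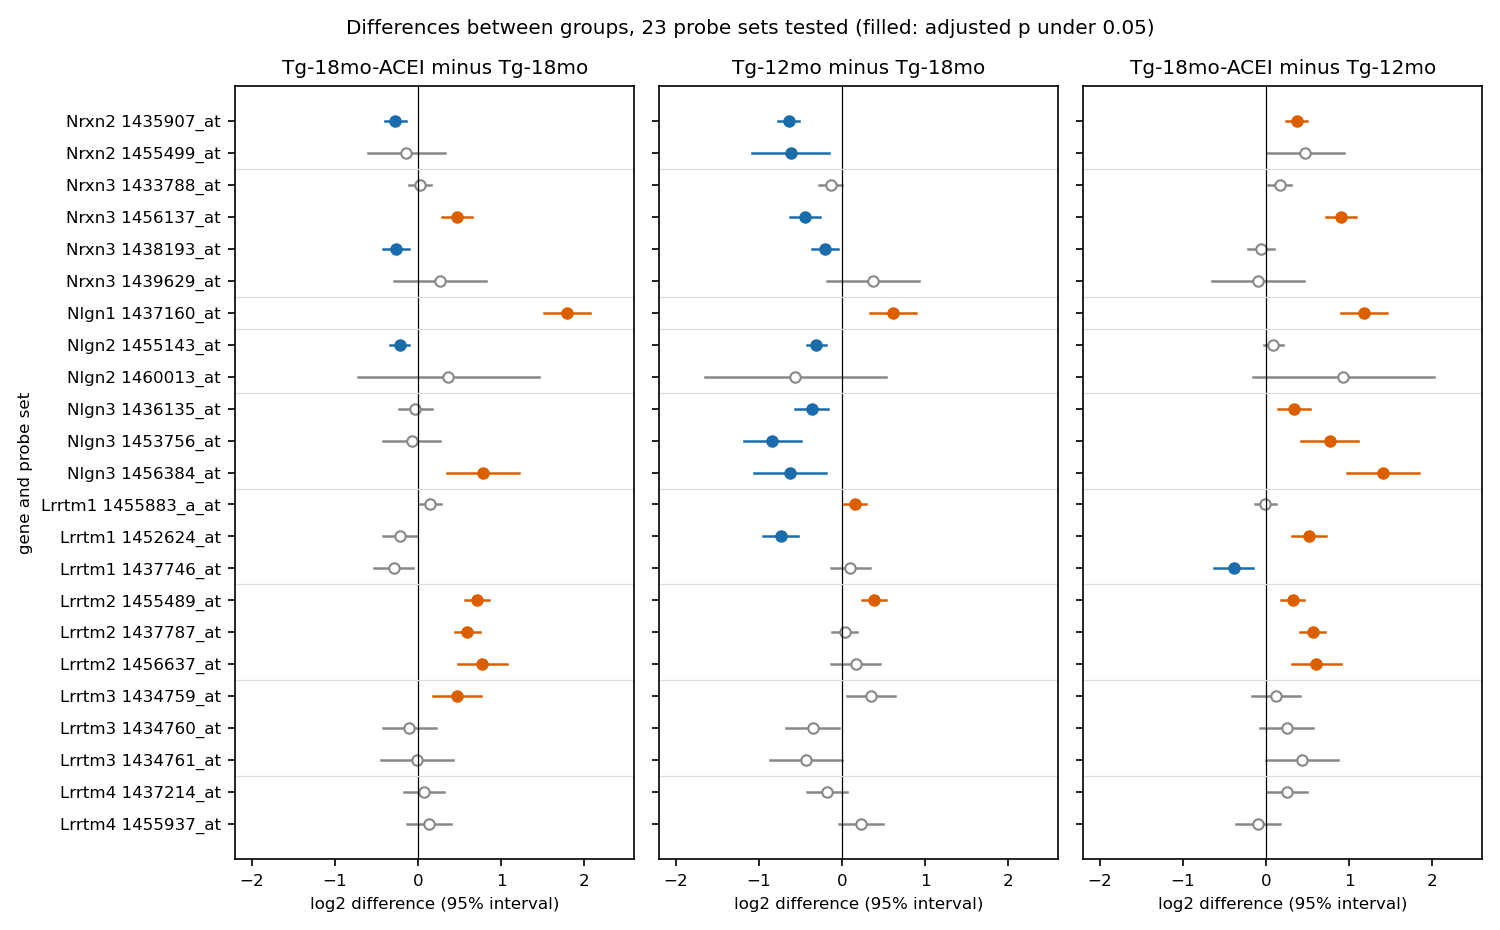
Log2 difference (horizontal axis) with its 95% interval for each of the 23 tested probe sets (vertical axis), in the comparisons Tg-18mo-ACEI minus Tg-18mo, Tg-12mo minus Tg-18mo and Tg-18mo-ACEI minus Tg-12mo. Filled points passed an adjusted p of 0.05, orange for higher and blue for lower; the first panel has 7 orange and 3 blue points, the middle one 3 and 9, the last one 10 and 1.

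On the presynaptic side, the brightest Nrxn2 probe set was highest in untreated old mice. 1435907_at read 2354 and 2423 on the untreated 18 month-old chips, 2034 and 1919 on the captopril chips and 1505 and 1551 on the 12 month-old chips. The 3 groups did not overlap. The signal was 0.827-fold with captopril (log2 -0.27, SE 0.055, adjusted p = 0.0062) and 0.64-fold at 12 months (log2 -0.64, adjusted p = 5.1e-05), each against Tg-18mo. Captopril-treated mice lay between the untreated ages, 1.29-fold above 12 month-old mice (adjusted p = 0.001). Leaving out replicate 2 of Tg-18mo or of Tg-18mo-ACEI ended the captopril call (adjusted p = 0.051 and 0.05).

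The other Nrxn2 probe set, 1455499_at, read 194 and 231 on the untreated 18 month-old chips, 199 and 185 on the captopril chips and 117 and 163 on the 12 month-old chips. Its chips overlapped between treated and untreated 18 month-old mice (log2 -0.14, SE 0.203, adjusted p = 0.62), and both 12 month-old chips were below the others. The 12 month value was 0.652-fold that of Tg-18mo (adjusted p = 0.035). Both Nrxn2 probe sets were therefore lower at 12 months, by nearly the same factor, but the call of 1455499_at was lost when any chip other than replicate 2 of Tg-12mo was left out (adjusted p = 0.057 to 0.19).

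Nrxn3, the gene of neurexin 3, had 5 probe sets that went different ways. 1456137_at read 2104 and 2245 on the untreated 18 month-old chips, 2870.3 and 3134 on the captopril chips and 1716 and 1493 on the 12 month-old chips. The groups did not overlap, with captopril highest and 12 months lowest. The signal was 1.38-fold higher with captopril than in Tg-18mo (log2 0.47, SE 0.078, adjusted p = 0.0028), 0.737-fold at 12 months (log2 -0.44, adjusted p = 0.0021) and 1.87-fold higher with captopril than at 12 months (adjusted p = 6.9e-05).

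1438193_at of the same gene read 1425 and 1372 on the untreated 18 month-old chips, 1117 and 1207 on the captopril chips and 1167 and 1258 on the 12 month-old chips. Here the untreated old chips were highest and the other 2 groups overlapped. The difference with captopril was -0.27 on the log2 scale (SE 0.068, adjusted p = 0.018), opposite in sign to that of 1456137_at, and the difference at 12 months was -0.21 (adjusted p = 0.036). Leaving out replicate 1 or 2 of Tg-18mo or replicate 1 of Tg-18mo-ACEI ended the captopril call (adjusted p = 0.098, 0.06 and 0.11), and leaving out replicate 1 or 2 of Tg-18mo or replicate 1 of Tg-12mo ended the 12 month call (0.16, 0.083 and 0.15). With quantile normalization the 12 month difference shrank to -0.12 (adjusted p = 0.17), and it also missed the threshold after division by the chip median (0.064), without the filter (0.062) and without the intensity trend (0.084), the last of which ended the captopril call too (0.06).

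The brightest Nrxn3 probe set, 1433788_at, read 4661 and 4946 on the untreated 18 month-old chips, 5126 and 4655 on the captopril chips and 4283 and 4442 on the 12 month-old chips. Treated and untreated 18 month-old chips overlapped (log2 0.03, 95% interval -0.11 to 0.16, adjusted p = 0.77), and the 12 month-old chips were below both without passing the test (log2 -0.14 against Tg-18mo, adjusted p = 0.088). With quantile normalization alone this 12 month difference passed (log2 -0.18, adjusted p = 0.033). 1439629_at read 184 to 331 with overlapping groups and did not pass in any comparison, and 1432931_at read 16.1 to 56 and was not tested. Which Nrxn3 transcripts the 5 probe sets read cannot be told apart here.

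Among the neuroligins, Nlgn2 encodes neuroligin 2, the form known from GABAergic synapses. Its bright probe set 1455143_at read 4565 and 4785 on the untreated 18 month-old chips, 4131 and 3892 on the captopril chips and 3732 and 3816 on the 12 month-old chips. The untreated old chips were highest and no groups overlapped. The signal was 0.858-fold with captopril (log2 -0.22, SE 0.051, adjusted p = 0.012) and 0.807-fold at 12 months (log2 -0.31, adjusted p = 0.0014), while captopril-treated and 12 month-old mice differed by 0.09 on the log2 scale without passing (95% interval -0.03 to 0.20, adjusted p = 0.21). Without replicate 2 of Tg-18mo or of Tg-18mo-ACEI that captopril call was lost (adjusted p = 0.086 and 0.081), as it was without the intensity trend (0.067). Against the 3.47-fold of Nlgn1, the captopril difference of this Nlgn2 probe set was small and in the opposite direction. The other probe set, 1460013_at, read 84.4 and 79.0, then 118 and 93.8, then 31.7 and 96.1, and did not pass in any comparison. Its captopril difference was 0.36 on the log2 scale (SE 0.477, adjusted p = 0.59). Both comparisons with Tg-12mo passed without replicate 2 of that group (adjusted p = 0.013 and 0.0063), a fit in which 12 months is the single chip at 31.7 and the other groups supply the spread.

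Nlgn3 encodes neuroligin 3, and its 3 probe sets shared a low level at 12 months. 1436135_at read 1100.0 and 1044 on the untreated 18 month-old chips, 1007 and 1091 on the captopril chips and 890.2 and 776 on the 12 month-old chips. 1453756_at read 274 and 311, then 252 and 305, then 165 and 160.5 in the same order of groups. 1456384_at read 169 and 159.8, then 278 and 284, then 91.3 and 123. On all 3 the Tg-12mo chips lay below every other chip, and the 12 month value was 0.775-fold, 0.557-fold and 0.647-fold that of Tg-18mo (adjusted p = 0.0076, 0.0021 and 0.025).

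With captopril the Nlgn3 probe sets did not move together. 1436135_at and 1453756_at differed from Tg-18mo by -0.03 (SE 0.085, 95% interval -0.23 to 0.16, adjusted p = 0.8) and -0.08 (SE 0.15, interval -0.42 to 0.27, adjusted p = 0.72) on the log2 scale, with overlapping chips. 1456384_at was 1.71-fold higher (log2 0.78, SE 0.189, adjusted p = 0.015), and its treated and untreated chips did not overlap. That call was lost whenever any of the 4 chips of 18 month-old mice was left out (adjusted p = 0.055 to 0.089). Against 12 month-old mice, captopril-treated mice were higher on all 3, by 1.26-fold, 1.7-fold and 2.65-fold (adjusted p = 0.014, 0.0042 and 0.00063). Leaving out a chip also ended the call of 1436135_at at 12 months against 18 months (replicate 1 of Tg-18mo, adjusted p = 0.053) and with captopril against 12 months (replicate 2 of Tg-18mo-ACEI, 0.095, or of Tg-12mo, 0.065). For 1456384_at the 12 month call did not hold without replicate 1 or 2 of Tg-18mo, replicate 2 of Tg-18mo-ACEI or replicate 1 of Tg-12mo (adjusted p = 0.11, 0.076, 0.05 and 0.087).

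Lrrtm2 encodes a postsynaptic neurexin ligand of excitatory synapses, and its 3 probe sets all rose with captopril. 1455489_at read 1062 and 991 on the untreated 18 month-old chips, 1653 and 1697 on the captopril chips and 1365 and 1317 on the 12 month-old chips. 1437787_at read 1022 and 1125, then 1647 and 1586, then 1087 and 1105. 1456637_at read 307 and 285, then 565 and 452, then 324 and 339. On each probe set both captopril chips were above all 4 untreated chips of either age.

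Against Tg-18mo the Lrrtm2 signals were 1.63-fold (log2 0.71, SE 0.062, adjusted p = 9.2e-05), 1.51-fold (log2 0.59, adjusted p = 0.00036) and 1.71-fold higher (log2 0.77, adjusted p = 0.0027) in the same order of probe sets. Against Tg-12mo they were 1.25-fold, 1.48-fold and 1.52-fold higher (adjusted p = 0.0038, 0.00032 and 0.0063), and the last of these was lost without Tg-18mo-ACEI replicate 1 (adjusted p = 0.057). The untreated ages differed on 1455489_at, which was 1.31-fold higher at 12 months (adjusted p = 0.0012). On 1437787_at the untreated ages overlapped (log2 0.03, adjusted p = 0.72), and on 1456637_at they did not pass (log2 0.17, adjusted p = 0.32).

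Lrrtm1 had probe sets of opposite direction with age. 1455883_a_at, the brightest, read 3736 and 3855 on the untreated 18 month-old chips, 4067 and 4351 on the captopril chips and 4387 and 4079.8 on the 12 month-old chips. 1452624_at read 1846 and 1722, then 1504 and 1558, then 1174 and 970.1. 1437746_at read 407 on both Tg-18mo chips, 317 and 347 with captopril and 449.6 and 421 at 12 months. The untreated old chips were thus lowest on the first probe set, highest on the second and between the other groups on the last.

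At 12 months Lrrtm1 was 1.11-fold on 1455883_a_at (log2 0.16, SE 0.056, adjusted p = 0.049) and 0.599-fold on 1452624_at (log2 -0.74, SE 0.09, adjusted p = 0.00028), both against Tg-18mo. The first of these calls was lost when any chip other than replicate 2 of Tg-12mo was left out (adjusted p = 0.051 to 0.23). No Lrrtm1 probe set passed with captopril against Tg-18mo in the reported fit, where the log2 differences were 0.15, -0.22 and -0.29 (adjusted p = 0.075, 0.094 and 0.057). After division by the chip median 1455883_a_at passed there as higher (log2 0.18, adjusted p = 0.043). With replicate 1 or 2 of Tg-12mo left out, 1452624_at passed there (adjusted p = 0.025 and 0.024). Against Tg-12mo, captopril-treated mice were 1.43-fold higher on 1452624_at (adjusted p = 0.0023) and 0.762-fold on 1437746_at (adjusted p = 0.016), the latter lost without Tg-18mo-ACEI replicate 1 (0.1) or Tg-12mo replicate 1 (0.06).

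For Lrrtm3, 1 of 3 tested probe sets moved with captopril. 1434759_at read 440.3 and 427 on the untreated 18 month-old chips, 552 and 655 on the captopril chips and 616 and 495 on the 12 month-old chips, with the untreated old chips lowest. It was 1.39-fold higher with captopril (log2 0.47, SE 0.127, adjusted p = 0.022), and its 1.27-fold difference at 12 months did not pass (adjusted p = 0.051). The captopril call did not hold without replicate 1 or 2 of Tg-18mo or replicate 2 of Tg-18mo-ACEI (adjusted p = 0.07, 0.1 and 0.15). 1434760_at and 1434761_at differed by -0.11 and -0.01 on the log2 scale with captopril (adjusted p = 0.59 and 0.98) and were lowest at 12 months without passing (-0.35 and -0.44 against Tg-18mo, adjusted p = 0.066 and 0.09). The fourth probe set, 1440112_at, read 33.1 to 104 and was not tested.

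Lrrtm4 encodes a neurexin and heparan sulfate binding protein that is enriched in the dentate gyrus. 1437214_at read 788 and 739 on the untreated 18 month-old chips, 776 and 829 on the captopril chips and 744 and 609 on the 12 month-old chips, and 1455937_at read 488 and 489, then 556 and 517, then 643 and 511. The groups lay close together, with differences of 0.07 (95% interval -0.17 to 0.31) and 0.13 (-0.13 to 0.40) with captopril and -0.18 and 0.23 at 12 months on the log2 scale. Neither Lrrtm4 probe set passed in any comparison (adjusted p = 0.083 to 0.62), although with replicate 1 of Tg-12mo left out 1437214_at passed at 12 months (adjusted p = 0.025) and with replicate 2 left out 1455937_at did (0.016).

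By family, captopril against Tg-18mo gave 1 higher and 2 lower of 6 neurexin probe sets, 2 higher and 1 lower of 6 neuroligin probe sets, and 4 higher and 0 lower of 11 LRRTM probe sets. At 12 months against Tg-18mo, 4 neurexin and 4 neuroligin probe sets were lower, with 0 and 1 higher, while LRRTM probe sets gave 2 higher and 1 lower. Against Tg-12mo, captopril-treated mice had 2 higher neurexin, 4 higher neuroligin and 4 higher LRRTM probe sets, and the 1 lower was of Lrrtm1. Over all probe sets, in the same order of comparisons, 15.9%, 21.5% and 22.3% were higher and 17.7%, 25.9% and 17.7% were lower, and with 6 or 11 probe sets a family count near these shares is no result about the family. Probe sets of a gene share its RNA and are not replicates.

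No tested probe set of the alpha-catenin hosts of 3 LRRTM genes passed as higher with captopril against Tg-18mo. Ctnna1, which surrounds Lrrtm2, read 3024 to 3174 on 1437807_x_at in Tg-18mo and 3049.8 and 3062 with captopril (log2 -0.02, SE 0.048, adjusted p = 0.78). Its probe set 1448149_at was lower with captopril (log2 -0.26, adjusted p = 0.013), opposite to Lrrtm2, and 2 more read 1.34 to 31.975 and were not tested. At 12 months 1437807_x_at was higher (log2 0.23, adjusted p = 0.0051) and 1448149_at did not pass (log2 -0.10, adjusted p = 0.25). Ctnna2, which surrounds Lrrtm1, differed by 0.19 with captopril (adjusted p = 0.075) and fell by 0.20 on the log2 scale at 12 months (adjusted p = 0.047). Both Ctnna3 probe sets read 2.64 to 47.6 and were not tested.

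The binding partners and regulators of these proteins were described over 9 lists, each gene by its brightest tested probe set. Other probe sets of these genes are not given here, and they can differ in call, as those of Ctnna1 did with captopril. Of 81 genes tested, 16 were higher and 22 lower with captopril against Tg-18mo (19.8% and 27.2%, median log2 difference 0.03), where 15.9% and 17.7% of all probe sets were. At 12 months 18 were higher and 32 lower (22.2% and 39.5%, median -0.05). Captopril against 12 months gave 31 higher and 10 lower (38.3% and 12.3%, median 0.10), against 22.3% and 17.7% of all probe sets. Lower calls at 12 months outnumbered higher ones among the partners, among the 9 genes and, with 25.9% against 21.5%, over all probe sets. These shares over all probe sets are also the background of the counts by list that follow, many of which lie near them.

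Presynaptic partners gave 1 higher and 2 lower of 9 with captopril. Cask, a scaffold that binds the neurexin tail, was higher (log2 0.82, adjusted p = 0.02) and Apba1, the gene of the adaptor Mint1, was lower (-0.39, adjusted p = 0.0012). At 12 months 2 were higher and 2 lower, among them the calcium sensor of release Syt1 (0.56, adjusted p = 0.00025) and Apba1 (-0.58, adjusted p = 8.2e-05). Of 10 secreted adaptors and neurexophilins, 1 was higher and 1 lower with captopril, Cbln1 (0.57, adjusted p = 0.0013) and Nxph3 (-0.54, adjusted p = 0.031). There were 1 higher and 3 lower at 12 months. The largest falls were of Nxph4 (-1.94, SE 0.517, adjusted p = 0.015) and C1ql2 (-1.11, SE 0.058, adjusted p = 7.8e-06). The Nxph4 value is thus far less precise than that of C1ql2. A list of 11 other postsynaptic ligands included the Flrt genes, so not all of its members are neurexin ligands. Of these 11, 1 was higher and 4 lower with captopril and 1 higher and 3 lower at 12 months. The 1 higher with captopril was Flrt3 (0.30, adjusted p = 0.016). Clstn3, a calsyntenin, fell by 0.86 on the log2 scale with captopril (adjusted p = 7.5e-05), and its log2 difference at 12 months was -1.95 (adjusted p = 2.2e-06).

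Scaffolds under the neuroligins divided by gene. Of 9 excitatory scaffolds, 3 were higher and 3 lower with captopril, where Dlgap2 rose by 1.195 on the log2 scale (adjusted p = 9e-05), and Dlgap1 by 0.47 (adjusted p = 0.00023). At 12 months 3 were higher and 4 lower, with Dlgap3 at -0.94 (adjusted p = 3.1e-05) and Dlg3 at -0.65 (adjusted p = 3.2e-05). Of 6 inhibitory scaffolds, 0 were higher and 2 lower with captopril, Lhfpl4 (-0.36, adjusted p = 0.0017), whose protein joins neuroligin 2 to GABA receptors, and Iqsec3 (-0.18, adjusted p = 0.018). At 12 months 2 were higher, Insyn2a (0.86, adjusted p = 0.013) and Magi1 (0.72, adjusted p = 0.0058), and 2 were lower. The inhibitory list also holds a Slitrk gene, while other Slitrk genes are counted below as synaptic adhesion genes. Not all of its members are therefore scaffolds.

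Of 5 regulators, 2 were higher and 1 lower in both comparisons. Mdga2, whose product masks neuroligins, was higher with captopril (0.63, adjusted p = 0.0031) and at 12 months (0.63, adjusted p = 0.0019). Among 8 splicing factors that act on neurexin transcripts, 2 were higher and 1 lower with captopril and 3 were higher and 3 lower at 12 months. Rbfox2 rose by 1.81 on the log2 scale with captopril (SE 0.067, adjusted p = 1e-06), about the size of the Nlgn1 difference, and Nova2 fell by 0.67 (adjusted p = 0.0003). Of 21 other synaptic adhesion genes, 6 were higher and 8 lower with captopril and 3 were higher and 13 lower at 12 months, with Lrrc4b at -1.15 (adjusted p = 2.4e-05) and Lrfn3 at -1.08 (adjusted p = 2.4e-05).

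**Figure D3:**
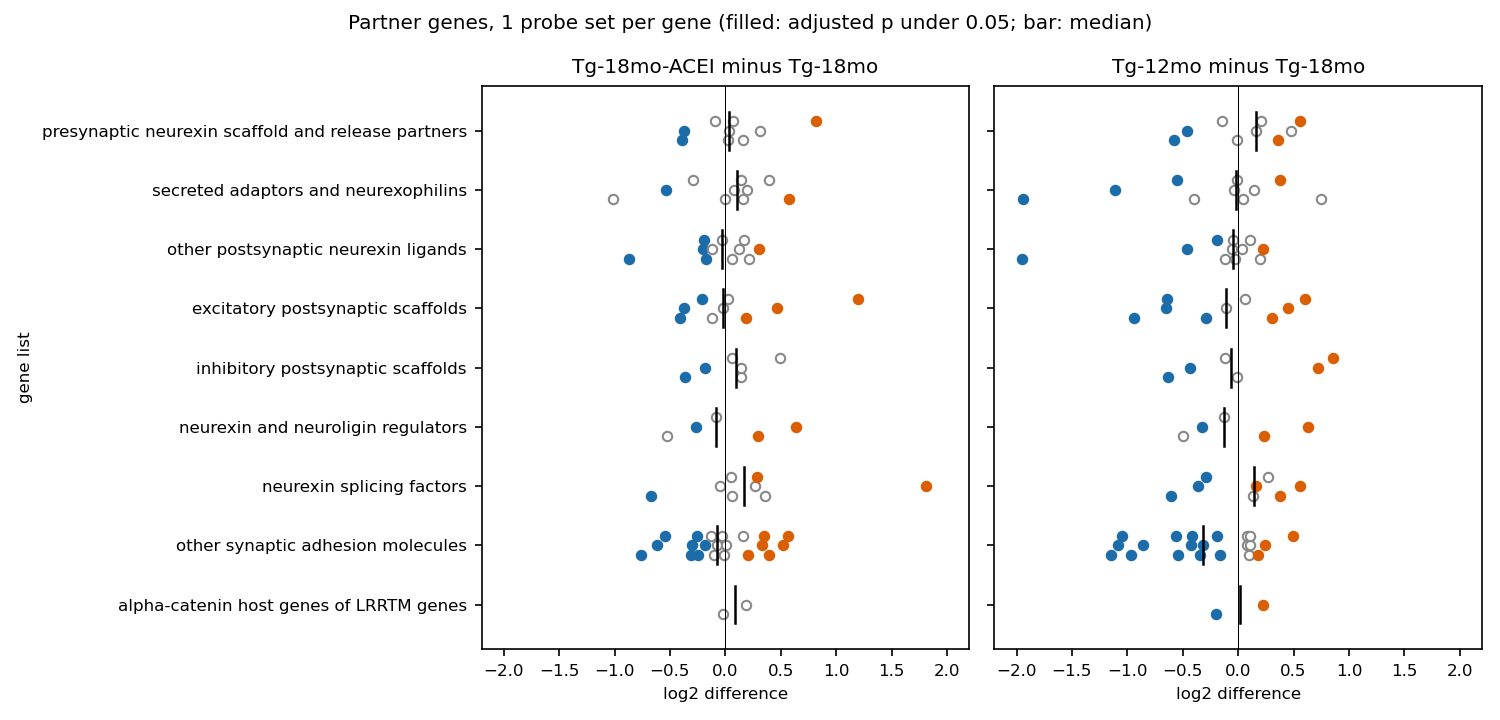
Log2 difference (horizontal axis) of each tested partner gene by list (vertical axis), 1 point per gene, in the comparisons Tg-18mo-ACEI minus Tg-18mo and Tg-12mo minus Tg-18mo. Filled points passed an adjusted p of 0.05 (orange higher, blue lower) and vertical bars are list medians; the other synaptic adhesion genes have 13 blue points at 12 months, and Rbfox2 at 1.81 is the rightmost point with captopril.

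Marker genes of other tissues and cell types moved with the same groups, and their part in the results was not tested. Choroid plexus markers were lower with captopril in 7 of 8 genes, with summed signals of 25959 and 28455 on the untreated 18 month-old chips, 22063 and 20091 on the captopril chips and 43878 and 43686 on the 12 month-old chips. The gene that did not pass was Ttr (log2 0.05), while the other 7 differed by -1.56 to -2.74 with a list median of -2.53. At 12 months 1 choroid plexus marker, Ttr (log2 0.96), was higher and 4 were lower. Meningeal markers were lower in 5 of 7, with sums of 8028 to 8175, 4261 to 4327 and, on the lower chip, 10087 in the same order. Of 6 cerebellar markers on the array 4 reached the filter on low signals and were tested, and 3 of these were higher with captopril. Gabra6, which defines cerebellar granule cells, read 7.93 and 21.6 on the untreated 18 month-old chips and 158 and 192 on the captopril chips. On the 12 month-old chips it read 1.67 and 3.31. Gabra6 passed the filter through Tg-18mo-ACEI alone, so it was counted only because it was high with captopril. The other higher ones were Cbln3 (log2 2.27, SE 0.376) and Pcp2 (log2 2.86, SE 0.579). Whether they too passed the filter through that group alone was not tested, so the count of 3 may rest on the filter. The remaining tested cerebellar marker, Zic1, was lower (log2 -0.88, adjusted p = 9.6e-06). The summed signal of the 4 was 4621 and 4855, then 3024 and 3205, then 4002 and 3871. Of 4 striatal markers 2 were lower with captopril. At 12 months meningeal markers gave 2 higher and 1 lower, and cerebellar and striatal markers each 0 higher and 2 lower. The lower meningeal marker was Col1a1 (log2 -3.13, SE 1.035), the least precise of that list. Whether Col1a1 passed the filter through Tg-18mo alone was not tested. Gabra6 was 1 of the 2 lower cerebellar markers (log2 -2.48, SE 0.866). Neither group of this comparison brought it past the filter, and its chips there read 21.6 or less, so this call carries little weight.

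Markers of hippocampal cell types were counted in the same way. The background of all marker counts is the share over all probe sets. It was 15.9% higher and 17.7% lower with captopril, and 21.5% and 25.9% at 12 months. Pan-neuronal markers gave 0 higher and 5 lower of 10 with captopril, and 5 higher and 3 lower at 12 months. Their sums were 104513 and 109160 on the untreated 18 month-old chips and 101435 and 97966 on the captopril chips. On the 12 month-old chips they were 123597 and 125995. Interneuron markers gave 0 higher and 6 lower of 7 with captopril and 2 higher and 3 lower at 12 months, with sums of 33586 and 34165, then 28126 and 28478, then 34223 and 33428. Markers of hippocampal principal neurons gave 3 higher and 2 lower of 8, and Prox1, a marker of dentate granule cells, read 162 and 139 on the untreated 18 month-old chips, 448 and 442.5 on the captopril chips and 168 and 220.4 on the 12 month-old chips. C1ql2, another gene of dentate granule cells, did not pass with captopril (log2 0.14, adjusted p = 0.093), and the lower genes of the list were Neurod2 (-0.29) and Spink8 (-0.47). Astrocyte markers gave 3 higher and 2 lower of 7 with captopril, oligodendrocyte markers 0 and 3 of 6, precursor markers 1 and 3 of 6, microglial markers 2 and 2 of 6 and endothelial markers 2 and 0 of 6. At 12 months principal neuron markers gave 1 higher and 3 lower, and astrocyte and oligodendrocyte markers each 4 and 2. Precursor markers gave 1 and 2 there, microglial markers 2 and 3 and endothelial markers 0 and 2.

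For the brightest tested probe set of each of the 9 genes, the gene with the nearest profile was found by the distance between log2 signals over the 6 chips, each centred on its own mean. The nearest to Nlgn1 was Samd5 (distance 0.184), the widest of the 9 gaps. Lrrtm2 was nearest to Map1b (0.0718), a microtubule protein gene, Nlgn2 to the immediate early gene Egr1 (0.0445), and Nlgn3 to Dab1 (0.0351), an adaptor of reelin signalling. Nrxn2 was nearest to Plekha5 (0.0545), Nrxn3 to Usp38 (0.0465), Lrrtm1 to Suco (0.0566), Lrrtm3 to 9930012K11Rik (0.0511) and Lrrtm4 to Gli3 (0.0678). With 6 chips in 3 groups such distances mostly restate the 3 group means, and they are given as a description.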

How the data were processed

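The authors hybridised pooled hippocampal RNA to Affymetrix MG430 2.0 chips and deposited 1 linear signal intensity per probe set, made with GCOS and scaled to a target value of 600; the trimmed mean of every chip was checked to be 600. The deposited values keep this scaling, so a difference is relative to the chip's average. Detection calls, raw images and RMA values are not used here.

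Of 45101 probe sets, 64 controls were left out. The 23262 whose group mean was at least 100 in any group were compared on the log2 scale with limma 3.58.1 in R 4.3.3. A single linear model (lmFit) held the 3 groups and 6 chips, and eBayes used a prior variance that follows intensity (3 residual and 5.37 prior degrees of freedom). Benjamini-Hochberg adjustment covered all 23262, with a threshold of 0.05. The fit was tested on simulated data with planted changes. Tables and figures were made with Python 3.11.15, pandas 2.3.3 and matplotlib 3.10.9. The number of chips limits the precision.

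Probe sets were named through GEO's platform annotation: 34945 had 1 symbol, 932 several and 9160 none, and only the first kind was used for genes. The 9 genes, the 9 partner lists and the 12 marker lists were chosen with earlier results of these data known. All probe sets of the 9 genes are named, and at most 2 passing partner genes per list and comparison, those with the largest absolute difference. The results were recomputed with 32 added to the signals, no filter, a mean of at least 200, quantile normalization, division by the chip median, only the groups compared, a replicate block, no intensity trend, the methods' t-test and each chip left out. Replicate numbers did not pair chips (correlations of deviations -0.03, 0.03 and -0.05), and nothing in the labels says that they do.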

Additional observations from a re-analysis of the deposited data

How the results depend on the processing

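Log2 differences of the tested probe sets were recomputed 957 times. In 0 of these did a difference past the threshold in either fit change sign, while 22 that passed in neither fit did. Many of the 957 could not change sign. The filters on low signals, the restriction to the groups compared, the replicate block and the lack of an intensity trend leave the difference itself as it was. So does leaving out a chip of the group not compared. Under all limma settings and with each chip left out, Nlgn1 1437160_at, Nrxn3 1456137_at and the 3 Lrrtm2 probe sets kept their captopril calls against Tg-18mo, while all 3 lower captopril calls were lost in at least 1. The t-test of the methods after adjustment, on linear as on log2 signals, called 0 probe sets higher and 0 lower with captopril (limma 7 and 3), 0 and 1 at 12 months (limma 3 and 9), and 0 and 0 between captopril and 12 months (limma 10 and 1). On linear signals at an unadjusted p under 0.05 it gave 5 and 3, 1 and 5, and 8 and 1. At the study's thresholds (unadjusted p of 0.01, 2-fold) it called 1 and 0, 0 and 0, and 1 and 0. Without an intensity trend, without the filter, and with only the groups compared, 2 were higher and 7 lower at 12 months, and the captopril counts were 6 and 2, 7 and 3, and 7 and 4. Calls also ended for Lrrtm3 1434759_at with captopril without the trend (adjusted p = 0.066), Nlgn3 1436135_at between captopril and 12 months with quantile normalization (0.066), Nlgn3 1456384_at at 12 months with only the groups compared (0.062), and at 12 months for Nrxn2 1455499_at (0.05 to 0.06) and Lrrtm1 1455883_a_at (0.051 to 0.14) in several settings. With the replicate block the counts were 7 and 3, 2 and 9, and 10 and 1; the block ended the 12 month call of Lrrtm1 1455883_a_at (adjusted p = 0.076) and no other. With a chip left out, the higher and lower counts ranged from 5 to 7 and from 0 (without Tg-18mo replicate 2) to 5 (without Tg-12mo replicate 2) with captopril, from 2 to 5 and from 5 (without Tg-18mo replicate 1) to 10 at 12 months, and from 9 to 12 and from 0 (without Tg-18mo-ACEI replicate 1 or Tg-12mo replicate 1) to 1 between captopril and 12 months. Differences that did not pass with all chips in the reported fit but did with a chip left out were, beside those given above, Lrrtm3 1434761_at in both comparisons with Tg-12mo (without its replicate 1, adjusted p = 0.023 and 0.028), Lrrtm4 1437214_at with captopril against 12 months (likewise, 0.013), Lrrtm3 1434759_at at 12 months (without Tg-12mo replicate 2, 0.014), Nrxn2 1455499_at with captopril against 12 months (likewise, 0.025), Lrrtm1 1437746_at with captopril against Tg-18mo (likewise, 0.05), Nrxn3 1433788_at with captopril against 12 months (without Tg-18mo-ACEI replicate 2, 0.033) and Nrxn3 1439629_at at 12 months (without Tg-18mo replicate 2, 0.024). Some of these also passed with all chips under another setting: Lrrtm3 1434759_at with quantile normalization (0.019), chip medians (0.036) or a mean of at least 200 (0.048), Nrxn3 1433788_at with quantile normalization (0.019) or a mean of at least 200 (0.049), Lrrtm1 1437746_at without the trend (0.048), Lrrtm4 1455937_at at 12 months with quantile normalization (0.043) and Lrrtm1 1452624_at with captopril with only the groups compared (0.023). Lrrtm1 1455883_a_at passed as higher with captopril against Tg-18mo after division by the chip median alone (adjusted p = 0.043). Nrxn3 1433788_at passed as lower at 12 months against Tg-18mo with quantile normalization alone (adjusted p = 0.033). Where a chip is left out, the lone chip of its group is assumed to vary like the other groups. The cause of these shifts was not tested. Signals near background limit Nlgn2 1460013_at and the 3 untested probe sets.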
